A study of Mus musculus and Rattus norvegicus with 32 samples.

Results

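The mitochondrial carriers of the SLC25 family were followed in hearts that lacked METTL5 and in cardiomyocytes that over-expressed it. A gene was taken as a member when its symbol was Slc25a followed by a number and nothing else, which gave 47 of the 55487 genes in each mouse table and 48 of the 32883 genes in the rat table, or 95 of 88370 over both species. The mouse and rat tables shared 46 of these symbols. Slc25a53 was listed only in mouse, and Slc25a6 and Slc25a52 only in rat.

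METTL5 is the enzyme that places a methyl mark on an adenosine of the 18S ribosomal RNA, and the study asked what its loss or gain does in the heart at rest and under stress. RNA was sequenced from total RNA extracts in 32 libraries, 8 groups of 4, and whether poly(A) RNA was selected is not given in the sources used here. Hearts of C57BL/6 mice were taken from METTL5-KO animals, a knockout not made with the cardiac Cre, and their controls at 1 month of age, from METTL5-cKO animals and their controls at 3 months, and from METTL5-cKO animals and their controls 4 weeks after transverse aortic constriction (TAC), a surgical narrowing of the aorta that overloads the left ventricle, whose label age was also 3 months. The METTL5-cKO mice carried floxed exons 2 to 4 of METTL5 and a Cre recombinase driven by the α-myosin heavy chain promoter, so the deletion was restricted to cardiomyocytes, and the animals of the METTL5-cKO and control groups after TAC had all been operated; no unoperated hearts entered that comparison. Neonatal rat ventricular myocytes (NRVMs) came from Sprague Dawley pups at postnatal day 2, were pre-plated to remove fibroblasts, were transduced with adenovirus carrying human METTL5 (AdMETTL5) or GFP (AdGFP), and in both groups were treated with 20 µM phenylephrine (PE), an adrenergic agonist that drives hypertrophic growth, for 24 h.

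SLC25 proteins sit mostly in the inner mitochondrial membrane and exchange nucleotides, phosphate, organic acids, amino acids and cofactors between the cytosol and the matrix. The cardiomyocyte depends on them because the ATP made in the matrix leaves through the ADP/ATP carriers, phosphate enters through Slc25a3, acylcarnitines enter through Slc25a20 for oxidation, and reducing equivalents enter through the malate-aspartate shuttle built on Slc25a11 and Slc25a12. Other members bring in S-adenosylmethionine, coenzyme A, NAD, glutathione and iron.

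Library totals ran from 19899033 to 21804907 counts in the 24 mouse libraries and from 14324700 to 18085339 in the 8 rat libraries, with every AdMETTL5 library below every AdGFP library. Levels are CPM, the count of a gene relative to its library size, with library sizes scaled by the trimmed mean of M-values. Libraries are numbered within a group by the order of the numbers in the table's column names, and no pair of libraries was close enough to be one library deposited again. Mettl5, the targeted gene, did not separate the genotypes of the mouse tables, at 5.12 ± 0.665 CPM in controls and 5.97 ± 0.807 in METTL5-KO hearts at 1 month, 7.36 ± 0.554 CPM in controls and 6.51 ± 0.731 in METTL5-cKO hearts at 3 months, and 6.75 ± 0.752 and 6.59 ± 0.764 after TAC (SD, n = 4 each). The count covers the whole gene, with exons inside and outside the part floxed in the METTL5-cKO mice. Why it did not separate the genotypes was not tested, and the groups used here rest on the labels. From its sequencing reads the study reported that the floxed exons could hardly be detected in METTL5-cKO hearts. The allele of the METTL5-KO mice is not described here. In NRVMs rat Mettl5 stood at 17.0 ± 0.774 CPM with AdGFP and 21.2 ± 1.76 with AdMETTL5; the transgene was the human coding sequence. The cardiomyocyte genes Myh6, Tnnt2, Tnni3, Actc1, Ryr2, Pln, Ttn and Actn2 were read in the hearts and summed to 37342 to 40759 CPM in the 3-month controls, against 409 to 536 for 7 fibroblast markers. In NRVMs the 7 fibroblast markers still summed to 11527 to 12140 CPM with AdGFP, against 29635 to 37568 for the 7 cardiomyocyte markers listed in the rat table. In such bulk samples fewer cells of a type and less RNA per cell cannot be told apart.

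Slc25a4, the heart and muscle ADP/ATP carrier also called ANT1, was by far the most abundant carrier in mouse hearts. Per kilobase of merged exons it stood at 1464 ± 197 CPM per kb in 3-month controls (SD, n = 4). The phosphate carrier Slc25a3 followed with 179.7 ± 2.92 CPM per kb, the oxoglutarate/malate carrier Slc25a11 with 130.9 ± 9.57 and Slc25a5, the second ADP/ATP carrier or ANT2, with 72.0 ± 9.25. The ranges of these 4 genes over the libraries did not overlap. Slc25a39, which imports glutathione, at 29.3 ± 2.62, and Slc25a34, a carrier without an assigned substrate, at 28.0 ± 4.73, came next and overlapped each other. The aspartate/glutamate carriers Slc25a13 (17.4 ± 3.79) and Slc25a12 (16.1 ± 1.83) overlapped the carnitine/acylcarnitine carrier Slc25a20 (16.7 ± 2.07). The same 4 genes led in the same order in the 1-month controls and in the controls after TAC. Merged exons join all annotated transcripts of a gene, 5550 bases for Slc25a3 and 2353 for Slc25a4, so the gaps between genes depend on these lengths. Without division by length, the 3-month controls had 3444 ± 463 CPM of Slc25a4, 998 ± 16.2 of Slc25a3 and 277 ± 20.3 of Slc25a11.

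**Figure D1:**
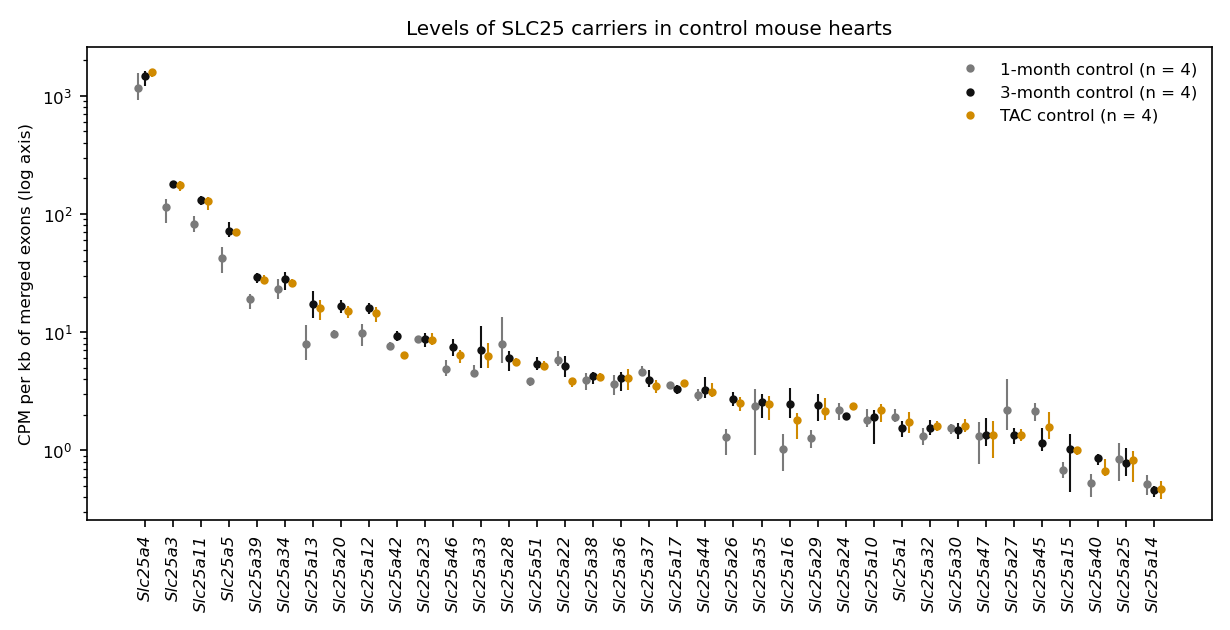
CPM per kb of merged exons on a log axis for 37 carriers whose mean in the 3-month controls was over 0.3 CPM per kb; points are means and lines run from the lowest to the highest of 4 control libraries at 1 month, at 3 months and after TAC. Slc25a4 stands apart at the left, at 1464 CPM per kb in the 3-month controls, followed by Slc25a3, Slc25a11 and Slc25a5.

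In counts that are not divided by length, Slc25a4 alone gave 55.2% to 63.4% of all SLC25 CPM in the 3-month controls and 59.5% to 65.0% in the controls after TAC. In NRVMs with AdGFP it gave 32.9% to 34.3%. At the other end, Slc25a41, Slc25a48 and Slc25a54 had no count in any library of either species. With Slc25a2, Slc25a18, Slc25a21, Slc25a31 and Slc25a43 they made up the 8 members left untested by the filter on low counts at 3 months and after TAC. Slc25a31 is the ADP/ATP carrier known from the testis, and its highest count in any heart library was 18. A test was possible for 40 members in the 1-month hearts, for 39 in those of 3 months, for 39 in those under TAC and for 41 in the rat cells.

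The stretches of DNA before the start sites of Slc25a42, Slc25a4 and Slc25a5 are given here as a description. The first and second were called lower in METTL5-cKO than in control hearts after TAC, described further on. The third, the paralogue of Slc25a4, did not pass the test. All are from the RefSeq promoter table on GRCm38.p6, read 5′ to 3′ on the strand of the gene, and the capitals mark CCAAT or its reverse complement ATTGG, a short element common before mammalian start sites. The Slc25a42 run covers chr8:70212306-70212531 on the minus strand and ends just before the first base that GENCODE annotates as transcribed. The Slc25a4 stretches cover chr8:46211158-46211186 and chr8:46211102-46211130 on the minus strand; GENCODE starts the gene upstream of the RefSeq start, so only the surroundings of the CCAAT matches are shown. The Slc25a5 run covers chrX:36795347-36795596 on the plus strand.
Slc25a42: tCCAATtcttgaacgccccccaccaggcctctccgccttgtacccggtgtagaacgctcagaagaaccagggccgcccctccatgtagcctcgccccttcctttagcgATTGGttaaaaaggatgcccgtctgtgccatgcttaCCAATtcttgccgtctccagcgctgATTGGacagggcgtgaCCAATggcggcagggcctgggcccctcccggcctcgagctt
Slc25a4, upstream match: gcgtcttcgcccCCAATgccctctgcaaa
Slc25a4, downstream match: ggaccagcccagCCAATgcgcgctgcgcg
Slc25a5: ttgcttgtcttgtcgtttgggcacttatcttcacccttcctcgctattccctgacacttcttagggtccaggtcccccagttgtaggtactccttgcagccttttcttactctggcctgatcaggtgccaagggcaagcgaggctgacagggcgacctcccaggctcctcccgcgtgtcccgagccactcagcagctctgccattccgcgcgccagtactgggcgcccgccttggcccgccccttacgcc

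Slc25a42 held 5 CCAAT matches in the 250 bases before its RefSeq start, Slc25a4 held 2 and Slc25a5 none; Slc25a3 and Slc25a11, which also move in the results, held 0 and 1. Of all 32851 promoter entries of the same length, 33.8% held at least 1 match, 10.1% at least 2 and 0.213% at least 5. Among the 46 entries of the 36 members found in the table, 21 held at least 1 and Slc25a42 was the single one with 5. The CCAAT search and the promoters shown were chosen after the values were seen. The contrast between these promoters therefore cannot test a link between the matches and the carrier values. Of 5 other motifs searched on both strands in the 300-base entries, the E-box CACGTG was in 7 of 36 members against 8.09% of all genes, GAAANNGAA (ISRE) in 4 against 9.76%, and GCGCATGC (NRF1) in 2 against 3.05%. TCAAGGTCA (ERR) and TGATGNAA (CARE) were in no member, against 0.466% and 4.51% of all genes. A match is a description of letters and not a bound site. No promoter entry was available here for Slc25a26.

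No carrier differed by the test between METTL5-KO and control hearts at 1 month. None of the 40 tested members had an adjusted p under 0.05 by edgeR's quasi-likelihood test, where 0.00612% of all genes did, and none by DESeq2. None had an unadjusted p under 0.05 either, where 4.57% of all genes did, and no member had groups that did not overlap, where 3.01% of all genes had. The median log2 fold change over the members was 0.01, and -0.01 over all genes. The 3 members with the smallest p were given by library.

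Slc25a18, a glutamate carrier of low level here, read 1.22, 0.760, 1.27 and 0.576 CPM in the controls and 0.595, 0.846, 0.353 and 0.340 in METTL5-KO hearts (log2 fold change -0.84 ± 0.37 SE, adjusted p = 0.973 by edgeR). Slc25a33, a pyrimidine nucleotide carrier, read 8.11, 9.98, 7.91 and 8.27 CPM in the controls and 10.7, 8.61, 10.8 and 10.6 in METTL5-KO hearts (0.25 ± 0.12). Slc25a40, a glutathione carrier, read 5.13, 5.28, 3.87 and 3.40 CPM in the controls and 6.04, 5.57, 5.12 and 5.25 in METTL5-KO hearts (0.31 ± 0.17). The groups of all 3 overlapped, in Slc25a33 through 1 METTL5-KO library that lay below the highest control. Control library 1 stood apart from the other controls in Slc25a4, while its other carriers summed to a level within their range. Its Slc25a4 level was 3664 CPM against 2146 to 2542 in the other 3 controls and 2227 to 2484 in METTL5-KO hearts.

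No carrier passed the test in METTL5-cKO hearts at 3 months. None of the 39 tested members was called by edgeR or by DESeq2, where 0.0732% of all genes were by edgeR, and 1 member had an unadjusted p under 0.05, where 7.05% of all genes did. Groups did not overlap for 2 members, or 5.13%, against 4.23% of all genes (2.19% higher and 2.04% lower), and Slc25a10 was the one with all METTL5-cKO hearts above all controls. The median log2 fold change was -0.03 over the members and 0.00 over all genes.

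Slc25a42, which brings coenzyme A into the matrix in exchange for ADP, read 53.3, 50.2, 57.8 and 61.2 CPM in the controls and 46.6, 51.0, 48.9 and 45.4 in METTL5-cKO hearts (log2 fold change -0.21 ± 0.09 SE, adjusted p = 0.662 by edgeR). Slc25a26, which imports S-adenosylmethionine into mitochondria, read 14.8, 13.6, 11.3 and 12.7 CPM in the controls and 12.5, 11.7, 9.75 and 9.62 in METTL5-cKO hearts (-0.27 ± 0.12). Slc25a10, the dicarboxylate carrier, read 7.60, 7.57, 3.92 and 7.24 CPM in the controls and 7.87, 8.53, 8.90 and 8.38 in METTL5-cKO hearts (0.35 ± 0.19). In the first 2 genes the groups overlapped, and in Slc25a10 control library 3 lay far below the other 3, with a log2 fold change of 0.17 without it. Slc25a4 itself read 2848, 3842, 3778 and 3308 CPM in the controls and 2775, 2972, 3148 and 3374 in METTL5-cKO hearts, which overlapped.

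**Figure D2:**
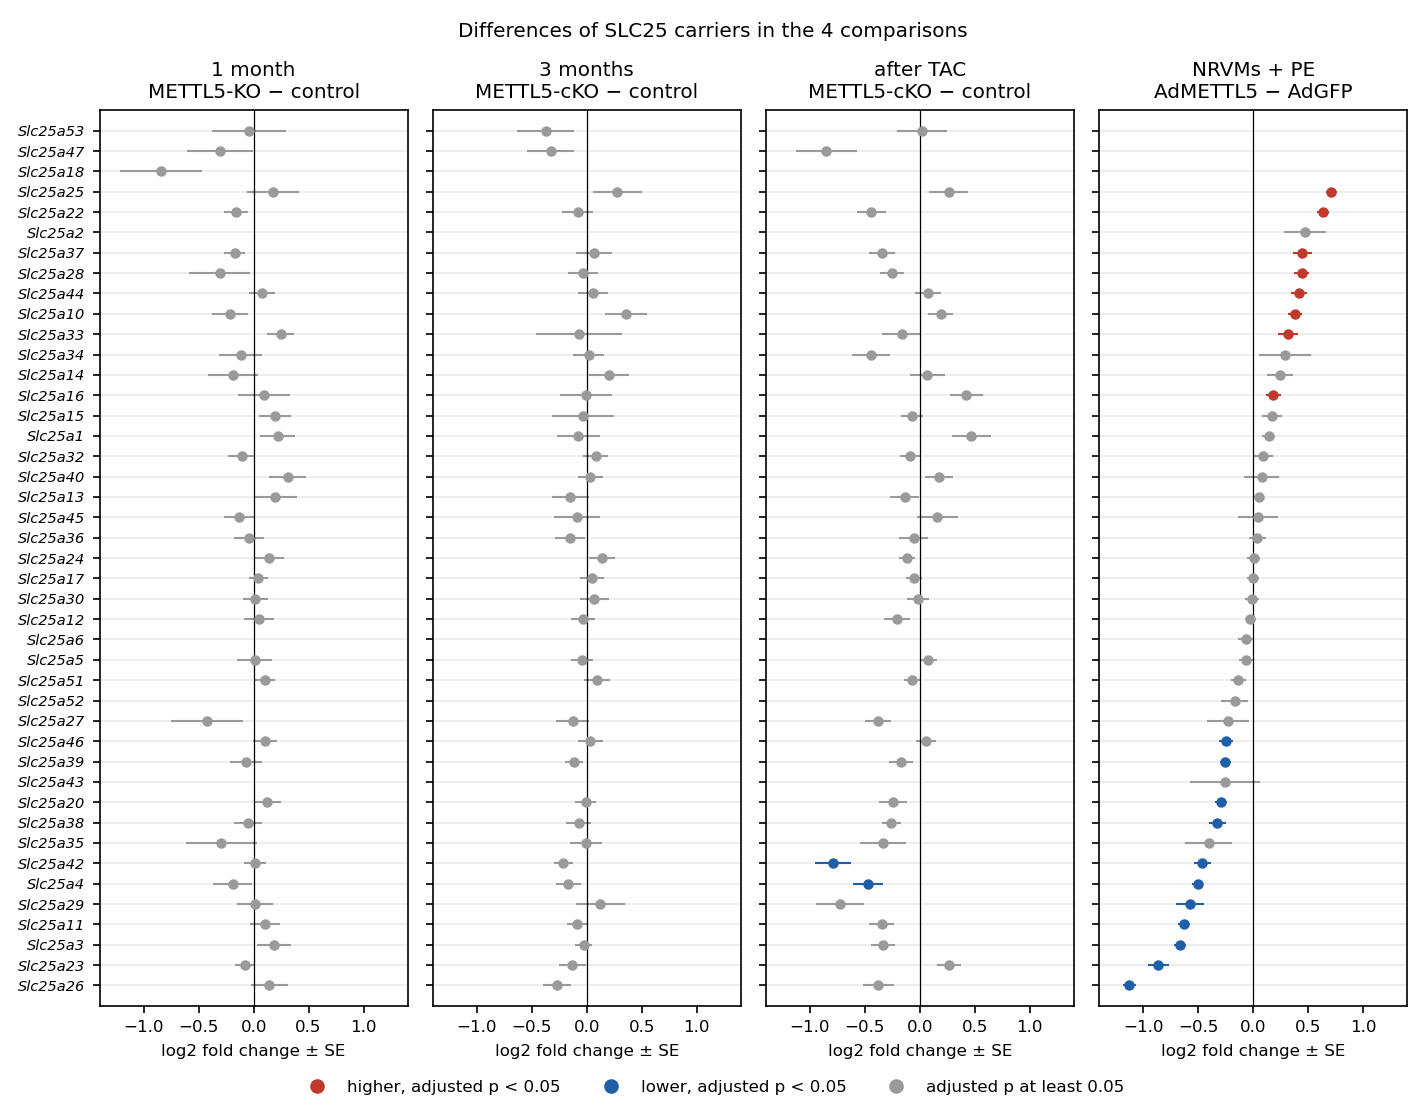
Log2 fold change with its standard error for the tested carriers, 1 left out, in the 4 comparisons, from edgeR; carriers are ordered by their value in NRVMs, with those not tested there at the top, and colour marks calls at an adjusted p under 0.05. No point is coloured at 1 or 3 months, 2 are after TAC, both lower, and 19 are in NRVMs, of which 8 are higher and 11 lower.

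After TAC 3 carriers were called lower in METTL5-cKO hearts and none higher. Among them were Slc25a42, which carries coenzyme A, and the ADP/ATP carrier Slc25a4. The 3 made 7.69% of the 39 tested members, against 6.1% of all genes called lower, 6.57% called higher and 12.7% called in either direction. Thus the share of members called lower was near that of all genes. At an unadjusted p under 0.05 there were 17 members, where 31% of all genes stood. Of the 39, 27 had a negative and 12 a positive log2 fold change, with a median of -0.14 against 0.00 over all genes. The summed level of the family was 5628 to 6283 CPM in controls and 4058 to 5523 in METTL5-cKO hearts, and without Slc25a4 it was 1969 to 2306 and 1670 to 2067.

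Slc25a42 (chr8:70184340-70212305, minus strand, GRCm38) read 36.8, 41.1, 39.3 and 37.7 CPM in the 4 controls and 15.8, 19.8, 24.0 and 29.9 in the 4 METTL5-cKO hearts. Every METTL5-cKO heart was below every control, and the METTL5-cKO hearts spread widely among themselves, with library 4 the highest. The log2 fold change was -0.79 ± 0.17 SE (adjusted p = 0.0195 by edgeR). Matrix coenzyme A is needed by pyruvate dehydrogenase and by fatty acid oxidation. Without METTL5-cKO library 4 the log2 fold change was -0.95, and the call was lost without any one of 4 other libraries (control 2, 3 or 4, or METTL5-cKO 2), with adjusted p up to 0.0653.

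Slc25a4 (chr8:46206797-46211284, minus strand) read 3392, 3808, 3659 and 4002 CPM in controls and 2388, 2438, 2425 and 3455 in METTL5-cKO hearts. METTL5-cKO library 4 lay above the lowest control, while the other 3 METTL5-cKO hearts lay far below all controls. The log2 fold change was -0.47 ± 0.14 SE and the adjusted p was 0.0491 by edgeR, near the threshold. That library also had a scaling factor of 0.947, within the 0.938 to 0.967 of the controls, where the other 3 METTL5-cKO hearts had 1.05 to 1.15. Without METTL5-cKO library 4 it was -0.61 with adjusted p = 0.00097, and without any one of the other 7 libraries the call was lost, with adjusted p from 0.063 to 0.14.

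Slc25a5, the ADP/ATP carrier that most tissues use, did not pass the test in the same hearts. It read 121, 112, 108 and 122 CPM in controls and 122, 116, 116 and 134 in METTL5-cKO hearts, which overlapped (log2 fold change 0.08 ± 0.08 SE, adjusted p = 0.545 by edgeR). The log2 ratio of Slc25a4 to Slc25a5 counts, which needs no scaling between libraries, was therefore taken in each library, a measure chosen after the values were seen. It was 4.81, 5.09, 5.09 and 5.04 in controls and 4.29, 4.39, 4.39 and 4.69 in METTL5-cKO hearts. Every METTL5-cKO heart was below every control, with a difference of -0.56 that stayed between -0.65 and -0.51 when any library was left out. The exact two-sided permutation test gave p = 0.0286, the smallest that 4 against 4 libraries allow, and 0.0762 after adjustment over the 8 ratio comparisons made. How reads shared by such closely related genes, or by the pseudogene Slc25a5-ps, were assigned is not given in the sources used here, so the levels of both are uncertain to that extent.

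Slc25a3 and Slc25a11 had negative values that did not pass by edgeR, and both were among the 7 members that DESeq2 called lower. Over all genes DESeq2 called 1237 lower, against 997 by edgeR. Slc25a3, which brings in the phosphate for ATP synthesis, read 1037, 979, 865 and 1048 CPM in controls and 701, 750, 738 and 919 in METTL5-cKO hearts (log2 fold change -0.34 ± 0.11 SE, adjusted p = 0.0675 by edgeR). Slc25a11, the oxoglutarate/malate carrier of the malate-aspartate shuttle, read 294, 273, 230 and 295 in controls and 190, 215, 202 and 251 in METTL5-cKO hearts (-0.35 ± 0.11). In both genes 3 of 4 METTL5-cKO hearts lay below all controls and library 4 overlapped them. Without that library Slc25a3 was at -0.42 (adjusted p = 0.00725 by edgeR) and Slc25a11 at -0.42 (0.0151).

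Slc25a12, the aspartate/glutamate carrier known as aralar, read 119, 105, 89.6 and 116 CPM in controls and 79.6, 94.2, 91.2 and 107 in METTL5-cKO hearts (log2 fold change -0.21 ± 0.12 SE, adjusted p = 0.252 by edgeR). Slc25a20, the carnitine/acylcarnitine carrier, read 80.0, 77.9, 63.6 and 73.4 in controls and 47.0, 65.9, 71.5 and 64.4 in METTL5-cKO hearts (-0.24 ± 0.13). The groups of both genes overlapped broadly. Slc25a26, the S-adenosylmethionine carrier, read 13.7, 11.6, 10.4 and 13.0 in controls and 7.72, 8.43, 9.62 and 11.7 in METTL5-cKO hearts (-0.38 ± 0.14, adjusted p = 0.104), with METTL5-cKO library 4 again the highest of its group.

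The 27 negative values after TAC were 69.2% of the members tested, against 50.6% of all genes. By role, they were 3 of 6 carriers of adenine nucleotides and phosphate, 7 of 9 of coenzyme A and other cofactors, 5 of 7 of carnitine and other amino acids, 1 of 3 of di- and tricarboxylates, and 2 of 3 uncoupling-like carriers. All 3 aspartate and glutamate carriers, both iron carriers, both pyrimidine nucleotide carriers and 2 of 4 outer membrane or unassigned members made up the rest. Among members not called, Slc25a16, a carrier linked to coenzyme A, was the only one with every METTL5-cKO heart above every control (log2 fold change 0.42 ± 0.15 SE, adjusted p = 0.0916 by edgeR), and Slc25a24, Slc25a27, Slc25a34 and Slc25a38 had every METTL5-cKO heart below every control without passing. In all 7 of 39 members had groups that did not overlap, or 17.9%, against 18.6% of all genes (9.41% higher and 9.16% lower).

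Scaling and cell markers of the whole TAC hearts touch these values. The choice of scaling moved the median of all genes from 0.00 to 0.14 on the log2 scale when library size alone was used, and the median of the members then stood at 0.02, with 2 carriers called higher, Slc25a16 and Slc25a23, and 2 lower, Slc25a4 and Slc25a42. In that scaling 2060 of all genes were called higher and 524 lower. Markers of other cells moved with genotype as well: 5 of 7 fibroblast markers were called higher, their sum running from 547 to 706 CPM in controls and from 847 to 2651 in METTL5-cKO hearts, and 4 of 5 endothelial markers were called lower (545 to 653 and 376 to 504). Of 8 cardiomyocyte markers 1, Tnni3, was called lower, and their sum ran from 33200 to 37935 in controls and 26588 to 33552 in METTL5-cKO hearts. Of these 8 markers 7 had a negative and 1 a positive log2 fold change, with a median of -0.22. Over all genes 6.57% were called higher and 6.1% lower. The part of cell composition in the carrier values was not tested.

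**Figure D3:**
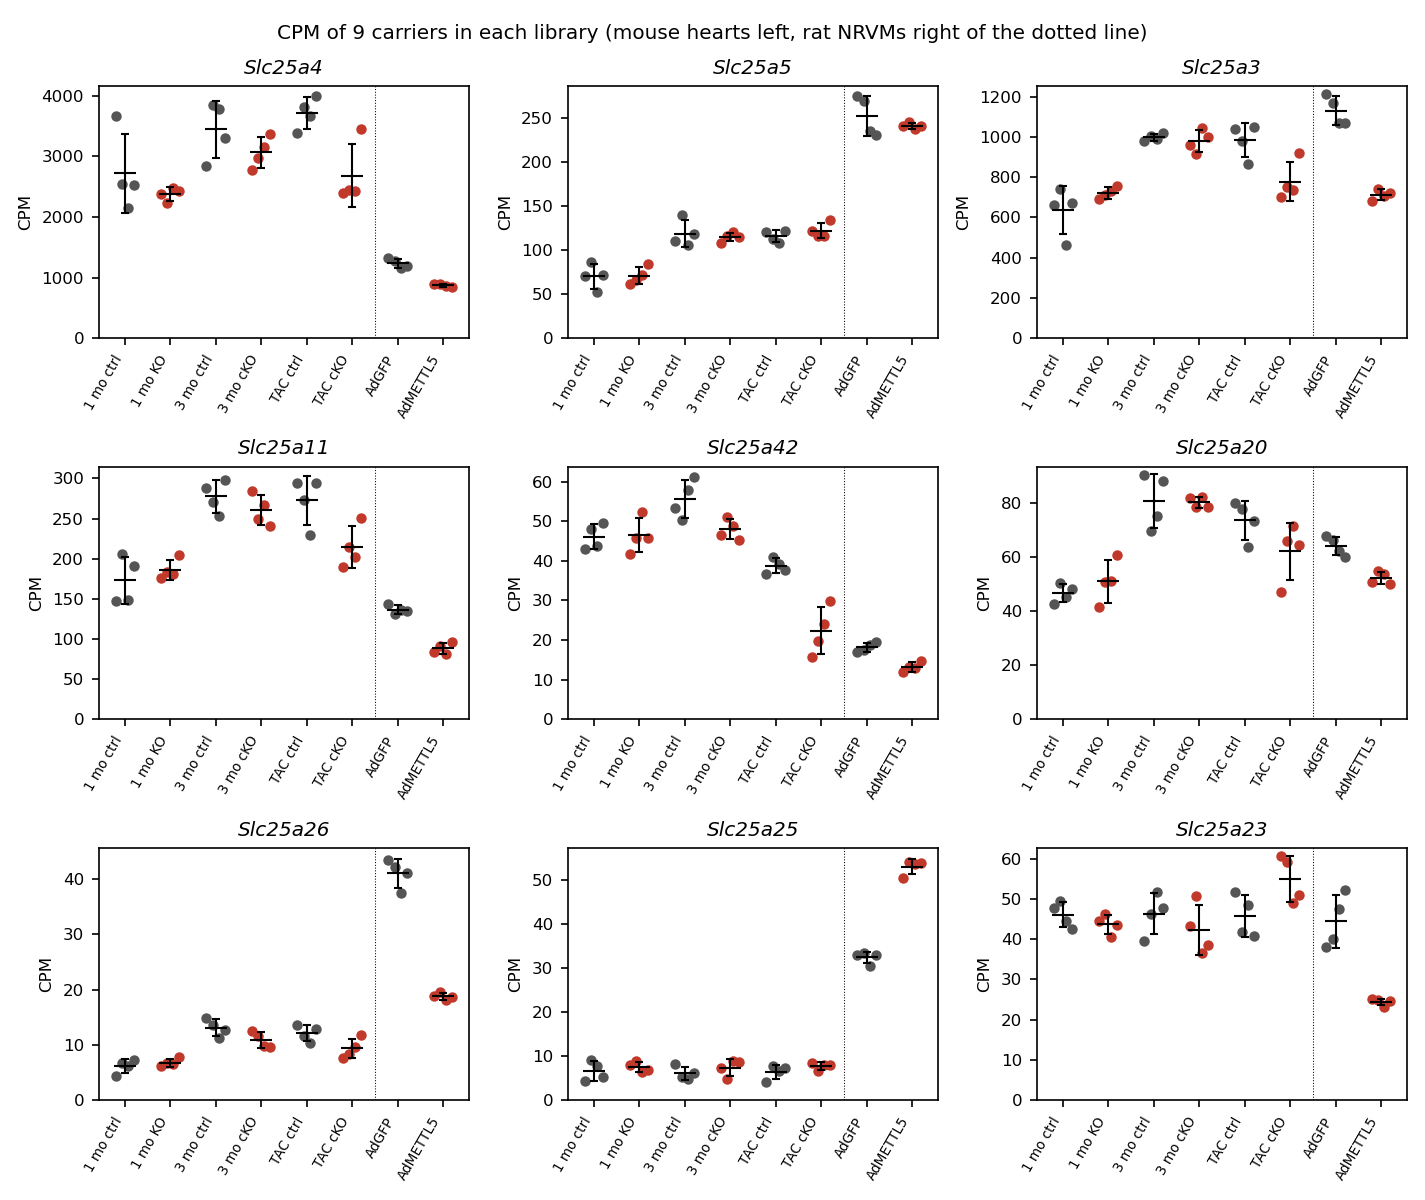
CPM of 9 carriers in each of the 32 libraries, from 0 upwards, with group means and SD (n = 4); grey points are controls or AdGFP, red points METTL5-KO, METTL5-cKO or AdMETTL5, and rat NRVMs stand to the right of the dotted line. After TAC the fourth METTL5-cKO library lies above its group in Slc25a4, Slc25a3, Slc25a11 and Slc25a42, while in NRVMs Slc25a26 falls from 37.4 to 43.5 CPM to 18.1 to 19.6 and Slc25a25 rises from 30.4 to 33.3 to 50.4 to 54.0.

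Whether the genotype difference itself was another after TAC than at 3 months was tested by an interaction term over both tables. No member passed by edgeR, where 0.00586% of all genes did (1 of 17070), and DESeq2 called none of the members either. At an unadjusted p under 0.05 there were 5 of 39 members, or 12.8%, against 11.8% of all genes. The smallest p was that of Slc25a42, with a difference of -0.56 ± 0.20 SE between the log2 fold changes (adjusted p = 0.271 by edgeR), followed by Slc25a29, Slc25a23 and Slc25a3. Without METTL5-cKO library 4 of the TAC hearts Slc25a3 and Slc25a42 passed, both with a more negative genotype difference after TAC than at 3 months. In that fit 679 of all genes passed, 372 higher and 307 lower, so the 2 members passed along with many other genes. The calls made after TAC and not at 3 months are thus not shown to differ between the conditions.

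Likeness to Slc25a4 was also taken over single hearts. After removal of the group means the 5 members most like Slc25a4 over the 8 TAC libraries were Slc25a47 (Pearson r = 0.766), Slc25a42 (0.758), Slc25a3 (0.754), Slc25a22 (0.728) and Slc25a28 (0.72). METTL5-cKO library 4 had 3455 CPM of Slc25a4 against 2388 to 2438 in the other METTL5-cKO hearts, and was also the highest of its group in Slc25a42 and Slc25a3. How far this 1 heart carries the correlations was not tested. These correlations share the libraries and their scaling and are given as a description.

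In PE-treated NRVMs with METTL5 over-expressed 19 of 41 tested carriers were called, 8 higher and 11 lower. This was 46.3% of the members against 52.8% of all genes, with 19.5% higher against 27.1% of all genes and 26.8% lower against 25.7%, so the share called was not above that of all genes. The median log2 fold change was 0.00 over the members and 0.00 over all genes. Slc25a3 and Slc25a4 were among those that fell, and the summed level of the family went from 3532 to 3868 CPM with AdGFP to 2783 to 2883 with AdMETTL5. Groups did not overlap for 17 members, 6 higher and 11 lower, or 41.5% against 48.4% of all genes (25.2% higher and 23.1% lower). At an unadjusted p under 0.05 there were 21 members, where 58.2% of all genes stood. With library size as the only scaling the medians of members and of all genes both stood at 0.13, and the calls were 13 higher and 8 lower. Over all genes 5872 were then called higher and 2343 lower, against 4082 and 3867 in the main fit. In that scaling Slc25a1, Slc25a2, Slc25a13, Slc25a14 and Slc25a15 were added to the higher calls, and Slc25a38, Slc25a39 and Slc25a46 dropped from the lower ones.

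The largest change of any member was in Slc25a26, which supplies S-adenosylmethionine, the methyl donor, to the mitochondrial matrix. It read 43.5, 42.1, 37.4 and 41.0 CPM with AdGFP and 18.9, 19.6, 18.1 and 18.6 with AdMETTL5. The highest AdMETTL5 library lay far below the lowest AdGFP library, and each group was tight. The log2 fold change was -1.12 ± 0.06 SE (adjusted p = 5.6e-08 by edgeR), and Slc25a26 was the one member past an absolute log2 fold change of 1, where 1.8% of all genes were lower past that size and 4.05% higher. It stayed between -1.17 and -1.10 when any library was left out.

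The phosphate carrier and the cardiac ADP/ATP carrier both fell. Slc25a3 read 1215, 1166, 1070 and 1069 CPM with AdGFP and 680, 742, 707 and 722 with AdMETTL5 (log2 fold change -0.67 ± 0.06 SE, adjusted p = 1.3e-06 by edgeR). Slc25a4 read 1326, 1270, 1162 and 1184 with AdGFP and 888, 887, 867 and 842 with AdMETTL5 (-0.50 ± 0.05, adjusted p = 8.8e-06). In both genes every AdMETTL5 library lay below every AdGFP library by a wide margin.

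Slc25a5 read 274, 269, 234 and 230 CPM with AdGFP and 240, 245, 237 and 241 with AdMETTL5, which overlapped (log2 fold change -0.06 ± 0.06 SE, adjusted p = 0.397 by edgeR; 0.07 with library size as the only scaling). The rat table also lists Slc25a6, an ADP/ATP carrier absent from the mouse tables, which was at 30.6 ± 3.08 and 29.3 ± 1.30 CPM (SD, n = 4 each; log2 fold change -0.06). The log2 ratio of Slc25a4 to Slc25a5 counts was 2.28, 2.24, 2.31 and 2.37 with AdGFP and 1.89, 1.85, 1.87 and 1.81 with AdMETTL5. The groups did not overlap, with a difference of -0.44 (exact two-sided permutation p = 0.0286, adjusted 0.0762 over the 8 ratio comparisons), between -0.46 and -0.42 with any library left out. Thus the cardiac form gave 3.50 to 3.70 counts for each count of Slc25a5 with AdMETTL5, against 4.72 to 5.15 with AdGFP.

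The ATP-Mg/phosphate carriers, which are gated by calcium and load or unload the matrix pool of adenine nucleotides, moved apart. Slc25a25 read 32.8, 33.3, 30.4 and 32.9 CPM with AdGFP and 50.4, 54.0, 53.6 and 53.7 with AdMETTL5 (log2 fold change 0.71 ± 0.05 SE, adjusted p = 3.9e-07 by edgeR). Slc25a23 read 38.0, 40.1, 47.4 and 52.2 with AdGFP and 25.1, 24.8, 23.2 and 24.6 with AdMETTL5 (-0.86 ± 0.09, adjusted p = 1.1e-05). The groups of neither gene overlapped, and the AdGFP libraries of Slc25a23 spread over a wider range than its AdMETTL5 libraries. The third gene of this kind, Slc25a24, was at 42.8 ± 2.62 and 42.9 ± 2.54 CPM (SD, n = 4 each), a log2 fold change of 0.00.

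The log2 ratio of Slc25a25 to Slc25a23 counts, also chosen after the values were seen, was -0.21, -0.27, -0.64 and -0.66 with AdGFP and 1.01, 1.12, 1.21 and 1.13 with AdMETTL5, so the more abundant gene in counts was Slc25a23 with AdGFP and Slc25a25 with AdMETTL5. The difference was 1.56 (exact two-sided permutation p = 0.0286, adjusted 0.0762). Slc25a25 was higher and Slc25a23 lower in every AdMETTL5 library than in every AdGFP library, so their ratio had to separate the groups. This p was thus fixed in advance and adds nothing to the results of the single genes, although it entered the adjustment of the other ratios. After TAC the same ratio was -2.86 ± 0.549 in controls and -2.83 ± 0.256 in METTL5-cKO hearts (SD, n = 4 each, exact permutation p = 0.914). In each mouse heart comparison this ratio had overlapping groups.

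**Figure D4:**
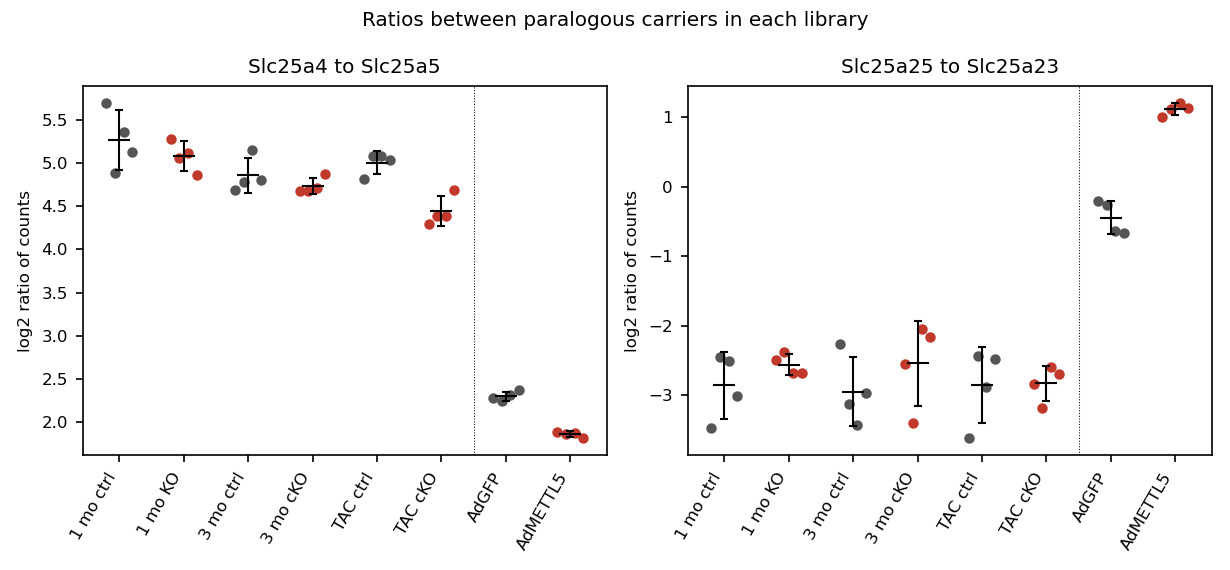
Log2 ratio of counts for Slc25a4 over Slc25a5 and for Slc25a25 over Slc25a23 in each library, with group means and SD (n = 4), mouse hearts left and rat NRVMs right of the dotted line. The first ratio is lower in METTL5-cKO than in control hearts after TAC (4.44 against 5.01) and lower with AdMETTL5 than with AdGFP (1.85 against 2.30); the second is higher with AdMETTL5 (1.12 against -0.45) and overlaps between groups in mouse hearts.

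Slc25a11, Slc25a20 and Slc25a42 fell as well. Slc25a11 read 144, 131, 136 and 134 CPM with AdGFP and 83.4, 91.7, 81.4 and 96.3 with AdMETTL5 (log2 fold change -0.63 ± 0.06 SE, adjusted p = 3.3e-06 by edgeR). Slc25a20 read 67.7, 66.2, 62.5 and 60.1 with AdGFP and 50.7, 55.0, 53.7 and 50.1 with AdMETTL5 (-0.29 ± 0.05). Slc25a42 read 16.9, 17.6, 18.8 and 19.4 with AdGFP and 11.9, 13.1, 12.9 and 14.8 with AdMETTL5 (-0.46 ± 0.08, adjusted p = 0.0004). The groups of all 3 were apart. Slc25a12 did not pass, at 52.1, 57.4, 53.3 and 55.4 CPM with AdGFP and 52.6, 55.2, 51.0 and 55.4 with AdMETTL5 (-0.03 ± 0.05, 0.11 with library size as the only scaling).

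The lower calls were completed by 4 carriers of smaller or less abundant change. Slc25a39, the glutathione importer, changed by -0.25, Slc25a29, a carrier of basic amino acids, by -0.57, Slc25a38, which brings in glycine for heme synthesis, by -0.32, and Slc25a46, an outer membrane protein of mitochondrial fission, by -0.24 on the log2 scale. All 4 had every AdMETTL5 library below every AdGFP library.

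On the other side stood both iron carriers. Slc25a28, mitoferrin-2, read 28.6, 24.6, 28.4 and 30.8 CPM with AdGFP and 37.4, 40.1, 38.8 and 36.8 with AdMETTL5 (log2 fold change 0.44 ± 0.07 SE, adjusted p = 0.000168 by edgeR). Slc25a37, mitoferrin-1, read 10.4, 10.3, 9.45 and 10.8 with AdGFP and 14.6, 12.7, 15.7 and 12.9 with AdMETTL5 (0.45 ± 0.09, adjusted p = 0.001). Both rose without overlap between the groups. The erythroid markers, of which 4 are listed in the rat table, were at 0 to 0.525 CPM in sum in these cells.

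Slc25a22, which carries glutamate, read 19.5, 18.9, 19.7 and 19.5 CPM with AdGFP and 32.4, 30.1, 29.5 and 28.7 with AdMETTL5 (log2 fold change 0.64 ± 0.06 SE, adjusted p = 2.5e-06 by edgeR). Slc25a10, the dicarboxylate carrier, read 27.5, 25.8, 26.4 and 25.3 with AdGFP and 37.0, 34.2, 34.3 and 31.0 with AdMETTL5 (0.38 ± 0.06). Slc25a44, which brings branched-chain amino acids into mitochondria, read 13.2, 13.3, 14.4 and 13.4 with AdGFP and 19.8, 17.2, 18.6 and 16.8 with AdMETTL5 (0.42 ± 0.07). In each of the 3 genes all AdMETTL5 libraries were above all AdGFP libraries. The remaining higher calls were Slc25a33 at 0.32 and Slc25a16 at 0.18, both with overlapping groups. Slc25a16 was close to the threshold (adjusted p = 0.0439 by edgeR) and was called in 2 of 8 fits that left out a library, those without AdGFP library 3 and without AdMETTL5 library 1.

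Markers of cell types moved in the same NRVM libraries. All 7 cardiomyocyte markers listed were called lower with AdMETTL5, with a median log2 fold change of -1.14, from a sum of 29635 to 37568 CPM to 13017 to 14496. Of the 7 fibroblast markers 6 were called lower, with a median of -0.38, and of 3 tested endothelial markers 1, Kdr, was called higher. Over all genes 25.7% were called lower and 27.1% higher. The part of these marker shifts in the carrier values was not tested. The fall of Slc25a4 was -0.50 and that of Slc25a3 -0.67 on the same scale.

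The TAC hearts and the NRVMs share no samples, and in one METTL5 was lost and in the other gained. Over the 37 members tested in both, 14 were negative in both and 8 positive in both, and the log2 fold changes correlated across genes with r = 0.352, which is a description, since genes are not independent replicates. Slc25a4 and Slc25a42 were called lower in both. Of the 11 members called lower in NRVMs 9 had a negative value after TAC, and of the 8 called higher 4 did. Among all 39 members tested after TAC 69.2% had a negative value. These counts and the correlation were not taken over all genes, so they do not show a shared behaviour of the carriers. Species, cell state and the direction of the METTL5 change differ between these settings, so the values stand side by side.

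Genes around the carriers were read from the same fits. Among carriers of the family that go by other symbols, Ucp2, an uncoupling protein homologue, was called higher at 3 months, from 41.8 ± 4.07 CPM in controls to 117.7 ± 22.0 in METTL5-cKO hearts (SD, n = 4 each; log2 fold change 1.49 ± 0.15 SE, adjusted p = 0.00967 by edgeR), with no overlap between the groups. Without the filter on low counts no gene was called higher at 3 months, so Ucp2 did not pass there. After TAC it was at 62.4 ± 6.77 and 89.7 ± 22.9 CPM and did not pass (adjusted p = 0.082). Ucp3, the muscle homologue, was called lower after TAC, from 17.4 ± 3.93 to 9.88 ± 2.09 CPM (-0.82 ± 0.20, adjusted p = 0.031). Ucp1 was at 0 in every library and Ucp3 at 0 in every rat library. In NRVMs Mtch1, a carrier-like protein of the outer membrane, was called lower (-0.36 ± 0.05), and Mtch2 was at -0.01.

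The enzymes that work with the carriers were called lower in several cases. Over all genes 6.1% were called lower and 6.57% higher after TAC, and 25.7% lower and 27.1% higher in NRVMs. After TAC 2 of 5 genes of the carnitine shuttle were lower, Cpt1b (log2 fold change -0.37) and Cpt2 (-0.66), and the 4 malate-aspartate shuttle enzymes had values from -0.29 to -0.16 that did not pass. In NRVMs all 4 of those enzymes, Got1, Got2, Mdh1 and Mdh2, were lower, with a median of -0.49, and the carnitine genes were divided, with Cpt1a and Cpt1b higher and Cpt2 and Crat lower. The 13 genes of the machinery that imports carrier proteins had values from -0.24 to 0.30 after TAC that did not pass, and in NRVMs 2 were higher, Tomm22 and Tomm70, and 3 lower, Agk, Timm13 and Timm22.

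Other transporters of the mitochondrial membranes were called lower in 4 and higher in 1 of 20 cases after TAC. The shares of all genes were 6.1% lower and 6.57% higher there, and 25.7% lower and 27.1% higher in NRVMs. Those lower were the pyruvate carrier subunit Mpc2 (log2 fold change -0.47), the outer membrane channel Vdac3 (-0.27) and the sideroflexins Sfxn4 (-0.64) and Sfxn5 (-0.93), and the higher one was Tspo (0.89), an outer membrane protein. In NRVMs 9 of 21 listed rows were lower, among them Vdac1, Vdac2, Vdac3, Mpc2 and Letm1, and 4 were higher, among them Mcu, Sfxn3 and Sfxn5. In the hearts of 1 and 3 months no gene of these lists or of the marker lists passed by edgeR other than Ucp2.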

How the data were processed

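The deposited values were gene-level estimated counts in whole numbers, which the authors made with HISAT2 2.0.4 and StringTie 2.1.4 (the submitters' processing notes also name DESeq2 1.4.5); rounding changed no value. Strand use and the handling of multiply mapped reads are not given in the sources used here. Columns of the 1-month table were tied to samples by title; those of the other 3 tables only to groups. Each table was fitted by itself over all its genes with edgeR 4.0.16 in R 4.3.3 (filterByExpr with minimum count 10 and total 15, TMM, quasi-likelihood F test, Benjamini-Hochberg over all genes tested, calls at adjusted p under 0.05), and the members were read from those fits, tested first on simulated data. The estimated counts rest on 14324700 to 21804907 deposited counts per library. The interaction was fitted over the 16 libraries of the 3-month and TAC tables. DESeq2 1.42.0, its size factors, library size alone, no filter and each library left out were the alternatives. Ratios were tested by exact permutation over 70 labellings. A p-value here sets a group difference against the spread between these samples, which may be technical. Whether the NRVM libraries of a group came from separate cell isolations is not stated in the methods of the study.

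Members, role groups, other pathway genes and markers were chosen with earlier results of these data known. Library values are given for up to 6 called members in each direction with the smallest adjusted p, for the 3 members with the smallest p where fewer than 3 were called, and, after TAC and in NRVMs, for Slc25a3, Slc25a4, Slc25a5, Slc25a11, Slc25a12, Slc25a20 and Slc25a26. Other called members are named with their log2 fold change. Mouse positions and exon lengths are from GENCODE M21 (GRCm38) and promoters from RefSeq. Marker lists not described in the report were: macrophage, with 1 of 6 called higher after TAC and 1 lower in NRVMs; smooth muscle, with 0 of 4 called after TAC by edgeR and 2 higher in NRVMs; and adipocyte, at 0 to 0.698 CPM in sum in all libraries. Erythroid markers, 5 tested in hearts, did not pass by edgeR there. Of the genes counted in the totals, 1 carrier and 1 other listed gene are not reported here by name.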

Additional observations from a re-analysis of the deposited data

Results flagged for a closer look

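Among the 60 groups of 4 libraries whose values the report gives for a carrier, 6 held a library far from the other 3, and chance alone sets about 1 in 20 groups apart in this way. After TAC, METTL5-cKO library 4 had 3455 CPM of Slc25a4 against 2388 to 2438 in the other METTL5-cKO hearts. At 3 months, control library 3 had 3.92 CPM of Slc25a10 against 7.24 to 7.60 in the other controls. At 1 month, METTL5-KO library 2 had 8.61 CPM of Slc25a33 against 10.6 to 10.8 in the others.

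In NRVMs the distances were small in size. AdGFP library 3 had 30.4 CPM of Slc25a25 against 32.8 to 33.3 in the other 3, and AdMETTL5 library 1 had 50.4 against 53.6 to 54.0. AdGFP library 3 had 14.4 CPM of Slc25a44 against 13.2 to 13.4 in the others. All 3 stayed on their own group's side of the difference between AdGFP and AdMETTL5.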

How the results depend on the processing

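At 1 and 3 months no member was called under any alternative, by DESeq2 or by any fit that left out a library. After TAC the count called lower was 3, and 7 by DESeq2, which added Slc25a3, Slc25a11, Slc25a22 and Slc25a29; without the filter on low counts Slc25a4 did not pass (adjusted p = 0.0864 by edgeR); with library size alone 2 were called higher; leaving out 1 library gave 0 to 11 lower (0 without control 4 or METTL5-cKO 2, 1 without control 2 or 3, 11 without METTL5-cKO 4) and 0 higher. Over all genes 997 were called lower after TAC in the main fit, 1237 by DESeq2 and 524 with library size alone. Leaving out 1 library gave 188 without control 4, 204 without METTL5-cKO 2, 287 without control 2, 444 without control 3 and 1926 without METTL5-cKO 4. In NRVMs 13 were called higher with library size alone, where 5872 of all genes were, against 4082 in the main fit. With 1 library left out 7 to 9 were higher and 11 lower, where 3658 to 3949 of all genes were higher and 3431 to 3776 lower. With library size alone Slc25a5 (0.0742) and Slc25a12 (0.11) turned positive in NRVMs. The interaction called 0 members, and 0 to 2 with 1 library left out (2 without TAC METTL5-cKO 4, where 679 of all genes were called). Over all genes DESeq2 called 12 against 1 by edgeR at 1 month, 96 against 12 at 3 months, and 234 against 1 for the interaction, no filter 1 at 3 months and 1052 against 2071 after TAC. The cause of these changes was not tested.

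At 1 month the groups share replicate numbers, but the numbers do not pair the samples (correlations of same-numbered libraries 0.239, 0.12, -0.107 and 0.078, with number 1 alone best matched to its own). With the replicate block 0 members were called higher and 0 lower, and the values of Slc25a18 (-0.84), Slc25a33 (0.25) and Slc25a40 (0.33) were on the same side. No paired analysis was possible because the columns of the other 3 tables carry no replicate number of the labels. The members left untested reached at most 22 counts in any library, and a difference in them was not detectable at this depth.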

Other observations

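At 3 months the pyrimidine nucleotide carrier Slc25a33 was high in 1 library of each group. Library 1 of the controls read 21.4 CPM against 9.42 to 11.3 in the other 3, and library 1 of the METTL5-cKO hearts read 24.4 against 7.78 to 9.48. The columns of this table carry no label that ties these libraries together.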
